A study of Mus musculus with 14 samples.

Results

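The genes described here encode leukocyte adhesion receptors: the integrin α-subunit genes Itgal, Itgam, Itgax, Itga4, Itga5 and Itga6, the β-subunit genes Itgb1, Itgb2 and Itgb7, and Pecam1. They were chosen by name and not by level, and they are 10 of the 52636 gene identifiers in the deposited count table. All 10 were among the 11994 genes that passed the filter on low counts. The study asked what an inhibitor of mutant IDH1 does to leukemic progenitors, and profiled their RNA from mice that had been transplanted with a leukemia named I1DN, whose alleles the labels do not spell out. The inhibitor was AG120 (AG-120, ivosidenib). The 5 groups were AG120 for 5 days (n = 3 mice), AG120 for 14 days (n = 2), relapse after 28 days of AG120 (n = 4), vehicle for 5 days (n = 3) and vehicle for 14 days (n = 2). Every group carried the same leukemia and was sorted with the same gate, cKit-positive and CD11b-negative, so there is no group of normal progenitors or of CD11b-positive cells. No vehicle group matches the 28 days of AG120 before relapse, so relapse and vehicle also differ in time. The labels name no marker that separates leukemic from host cells in the sort.

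Integrins are paired receptors in which 1 α-subunit and 1 β-subunit span the membrane together and bind matrix proteins or counter-receptors on other cells. The β-subunit of Itgb2 (CD18) pairs with the products of Itgal (CD11a), Itgam (CD11b) and Itgax (CD11c) into receptors confined to leukocytes, whereas the β-subunit of Itgb1 (CD29) pairs with many α-subunits, among them those of Itga4 (CD49d), Itga5 (CD49e) and Itga6 (CD49f). In bone marrow the pair of Itga4 and Itgb1 products holds progenitors to VCAM1 and fibronectin, and CD11b is a standard surface mark of mature myeloid cells.

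Itgal, Itgam and Itgax lie on chromosome 7 in the mm10 build (GRCm38), all on the plus strand, at chr7:127296260-127335138, chr7:128062640-128118491 and chr7:128129547-128150657. Itgam and Itgax are 11055 bases apart. Itga6 (chr2:71745616-71858416) and Itga4 (chr2:79255426-79333123) share chromosome 2, and Itgb7 (chr15:102215995-102231944) and Itga5 (chr15:103344286-103366763), both on the minus strand, share chromosome 15. Itgb1 is at chr8:128685654-128733200, Itgb2 at chr10:77530252-77565708, and Pecam1, on the minus strand, at chr11:106654217-106750628.

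The start regions of 3 of these genes are shown because their transcripts moved in opposite directions under AG120: Itgam, which fell, and the partners Itga4 and Itgb1, which rose. Each is 300 bases from RefSeq (GRCm38.p6), from 250 before to 50 after the annotated start, on the plus strand: chr7:128062390-128062689 for Itgam, chr2:79255176-79255475 for Itga4 and chr8:128685404-128685703 for Itgb1. Capitals mark the letters GAGGAA, the core bound by the myeloid factor PU.1, on either strand (TTCCTC on the other).
Itgam: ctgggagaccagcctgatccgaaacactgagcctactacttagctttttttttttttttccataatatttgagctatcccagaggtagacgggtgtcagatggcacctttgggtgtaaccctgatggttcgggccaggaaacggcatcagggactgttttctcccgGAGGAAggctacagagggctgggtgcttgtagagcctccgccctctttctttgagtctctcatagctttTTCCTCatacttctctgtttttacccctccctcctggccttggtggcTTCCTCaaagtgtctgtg
Itga4: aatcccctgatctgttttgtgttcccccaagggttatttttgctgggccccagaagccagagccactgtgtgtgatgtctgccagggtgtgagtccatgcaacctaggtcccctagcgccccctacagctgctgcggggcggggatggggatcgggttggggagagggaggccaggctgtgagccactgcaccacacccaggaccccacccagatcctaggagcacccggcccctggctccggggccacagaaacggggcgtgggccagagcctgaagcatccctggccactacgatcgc
Itgb1: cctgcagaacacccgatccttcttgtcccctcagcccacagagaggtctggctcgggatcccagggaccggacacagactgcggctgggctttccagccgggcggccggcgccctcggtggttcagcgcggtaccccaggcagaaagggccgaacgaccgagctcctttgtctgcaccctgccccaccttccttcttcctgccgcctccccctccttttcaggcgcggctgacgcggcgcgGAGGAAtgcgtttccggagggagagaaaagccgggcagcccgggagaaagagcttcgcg
The Itgam window held the letters 3 times, at 84 and 15 bases before the start and 32 after it, the Itgb1 window held them 1 time, at 9 bases before the start, and the Itga4 window did not hold them. The Itgb7 and Itga5 windows held them 1 time each and the Itgax window did not. Of 32851 RefSeq promoter windows of this length, 28.3% held them on at least 1 strand. The letters AGATAA or TTATCT, the core that GATA-family factors bind, were in the Itgax window alone among these 6, and in 11.2% of all windows, so none of the 6 held both motifs. Windows for Itgal, Itga6, Itgb2 and Pecam1 were not used here. A match of letters is a description of the window and not a binding site.

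Total counts were 4995738 to 8691708 per library. Ribosomal RNA gene models took 50.9% to 74.8% of them, so the remaining depth was 1259982 to 3358874 counts, and AG120 day 14 replicate 1 was the shallowest. Because the kit reads each transcript 1 time near its 3′ end, long transcripts gain no extra counts. Levels in CPM (counts scaled to a common library size) are therefore set side by side between genes. The share of transcripts that is counted may still differ between genes, and this was not tested. Itgam and Itga4 are cases in point, as their 3′ ends lie under other gene models. Of the markers behind the gate, Kit averaged 26.9 ± 5.34 CPM in AG120 day 5 libraries and 35.6 ± 2.174 CPM in vehicle day 5 libraries (SD, n = 3 each; log2 fold change -0.41 ± 0.35, adjusted p = 0.393, edgeR). At day 14 Kit had 11.6 CPM in both AG120 libraries, against 35.0 and 36.8 CPM in the vehicle libraries (log2 fold change -1.63 ± 0.49 SE, adjusted p = 0.022, edgeR's quasi-likelihood test). Cd34, a progenitor surface gene outside the gate, had 10.1 ± 2.13 CPM in AG120 day 5 and 139 ± 11.2 CPM in vehicle day 5 libraries (-3.78 ± 0.17, adjusted p = 5.61e-10). The relapse libraries split into pairs: replicates 1 and 4 (r = 0.972 over log2 CPM of the genes tested) and replicates 2 and 3 (r = 0.957) were each closer to one another than across the pairs. Kit was at 18.9 and 19.2 CPM in relapse replicates 1 and 4, and at 50.2 and 52.0 CPM in replicates 2 and 3.

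**Figure D1:**
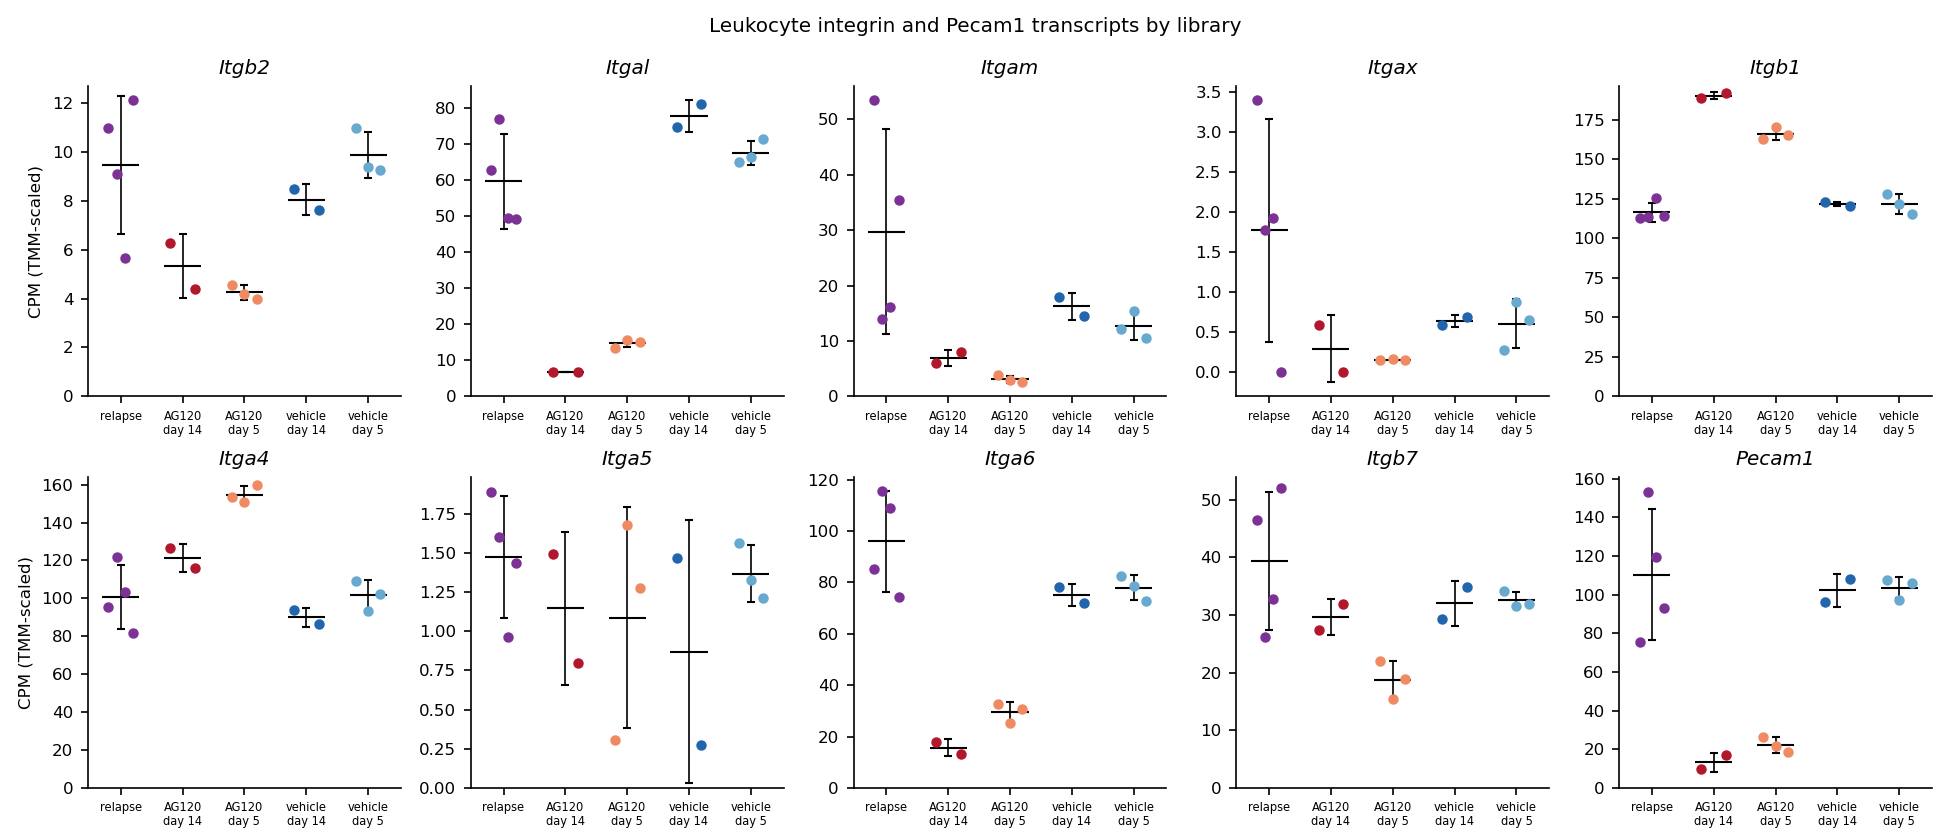
Expression of the 10 genes in every library, in CPM scaled by TMM (y axis, each panel with its own scale), by group (x axis); points are mice, long bars means and short bars SD. Itgal, Itga6 and Pecam1 are far lower in all 5 AG120 libraries than in the 5 vehicle and 4 relapse libraries, whereas Itgb1 is higher in AG120 than in any other library.

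In vehicle libraries the most abundant of these transcripts was Itgb1, at 122 ± 4.49 CPM (SD, n = 5 over both days), followed by Pecam1 at 103 ± 5.87, Itga4 at 97.0 ± 8.85, Itga6 at 76.8 ± 4.39, Itgal at 71.7 ± 6.49 and Itgb7 at 32.4 ± 2.21 CPM. Itgam at 14.2 ± 2.89 and Itgb2 at 9.14 ± 1.24 CPM came next, and Itga5 at 1.17 ± 0.517 and Itgax at 0.621 ± 0.218 CPM were last. The ranges of neighbours in this order overlapped between Pecam1 and Itga4, Itga6 and Itgal, Itgam and Itgb2, and Itga5 and Itgax, so those orders are not resolved. The common β2 chain was thus counted at a lower level than Itgal, one of its partners.

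After 5 days of AG120 most of these transcripts were lower than under vehicle, whereas those of the partners Itga4 and Itgb1 were higher. Of the 10 genes, 2 rose, 6 fell and 2 did not pass, whereas over all 11994 genes tested 39.4% passed (20.1% higher and 19.3% lower). Pecam1, Itgal and Itgam each fell over 4-fold, Itga6 and Itgb2 fell over 2-fold, and Itgb7 fell 1.73-fold. The median log2 fold change was -1.30 over the 10 genes and 0.00 over all genes tested. The libraries of AG120 and vehicle did not overlap for 9 of the 10 genes, which also held for 59.9% of all genes tested. After 14 days 2 of the 10 rose, 3 fell and 5 did not pass, where 34.7% of all genes passed (16.8% higher and 17.9% lower). The day 14 median was -0.90 over the 10 genes, against -0.01 over all genes tested, and 7 of the 10 did not overlap, against 70.5% of all genes. In RNA from a sorted population, fewer cells of a type and less RNA per cell cannot be told apart.

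Among the partners of β2, Itgal (CD11a, the α-chain of LFA-1, which binds ICAMs) was low in every AG120 library. It had 13.4, 15.6 and 15.2 CPM in AG120 day 5 libraries, against 65.1, 66.3 and 71.4 CPM in vehicle day 5 libraries. By day 14 Itgal was at 6.87 and 6.81 CPM under AG120, against 74.7 and 81.0 CPM under vehicle. Every AG120 library was far below every vehicle library, and the 2 day 14 AG120 libraries were the lowest of all. The log2 fold change was -2.20 ± 0.16 (SE) at day 5 (adjusted p = 3.79e-08, edgeR's quasi-likelihood test, as for every adjusted p of a gene here) and -3.51 ± 0.23 at day 14 (adjusted p = 1.61e-08).

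The fall of Itgal was larger at day 14 than at day 5 by 1.31 ± 0.28 log2 units (log2 difference of the effects -1.31, adjusted p = 0.0343), and it was the only 1 of the 10 genes for which the days differed past the threshold; 0.934% of all genes tested did so (0.208% higher and 0.725% lower). The value stayed between -1.38 and -1.25 when any 1 library was left out or another setting was used, but leaving out any 1 of the 10 AG120 and vehicle libraries took the adjusted p above the threshold (0.0657 to 0.17).

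Itgam, the CD11b gene that the gate selects against at the protein level, had transcripts in all 14 libraries. Its counts gave 3.81, 3.02 and 2.56 CPM in AG120 day 5 libraries and 12.2, 15.5 and 10.6 CPM in vehicle day 5 libraries. By day 14 Itgam was at 5.97 and 8.01 CPM under AG120, against 18.02 and 14.5 CPM under vehicle. AG120 libraries were below vehicle libraries at both days, from 16 to 40 counts each. A second gene model, Gm49368, shares 30 exons with Itgam and held 570 counts beside the 1443 of Itgam. The fall passed at day 5 (log2 fold change -2.02 ± 0.53, adjusted p = 0.0103) and not at day 14 (-1.19 ± 0.61, adjusted p = 0.154), and the effects of the days did not differ past the threshold (0.83 ± 0.82, adjusted p = 0.769). With only the 4 day 14 libraries in the fit, the day 14 value of -1.21 passed (adjusted p = 0.000428).

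The shared chain Itgb2 was scarce throughout, at 4.57, 4.20 and 3.99 CPM in AG120 day 5 libraries and 10.96, 9.39 and 9.24 CPM in vehicle day 5 libraries. At day 14 it had 6.27 and 4.40 CPM under AG120, against 8.497 and 7.60 CPM under vehicle. The groups were apart at both days, more narrowly at day 14. Itgb2 fell at day 5 (-1.21 ± 0.25, adjusted p = 0.00122), and its day 14 value was -0.62 ± 0.33 (adjusted p = 0.156). Itgax (CD11c, a chain of dendritic cells and macrophages) had 1, 1 and 1 counts in AG120 day 5 libraries and 2, 8 and 6 in vehicle day 5 libraries. At day 14 it had 2 and 0 counts under AG120, against 4 and 5 under vehicle. At this depth no difference was detectable for Itgax (-1.85 ± 1.22 at day 5 and -1.32 ± 1.58 at day 14, adjusted p = 0.242 and 0.551).

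Both chains of the VCAM1 and fibronectin receptor went the other way. Itgb1 had 163, 171 and 165 CPM in AG120 day 5 libraries, against 128, 122 and 115 CPM in vehicle day 5 libraries. By day 14 Itgb1 was at 189 and 192 CPM under AG120, against 122.8 and 120.7 CPM under vehicle. The AG120 values were tightly grouped and lay above every vehicle value. Itgb1 rose by 0.45 ± 0.10 log2 units at day 5 (adjusted p = 0.00156) and by 0.65 ± 0.12 at day 14 (adjusted p = 0.00053).

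Itga4 had 153, 151 and 159.9 CPM in AG120 day 5 libraries, against 109, 93.3 and 102 CPM in vehicle day 5 libraries. At day 14 it had 127 and 116 CPM under AG120, against 93.6 and 86.5 CPM under vehicle. Its AG120 values were again above all vehicle values, with the day 5 libraries highest. Itga4 rose by 0.61 ± 0.13 at day 5 (adjusted p = 0.00154), and its day 14 rise of 0.43 ± 0.16 was at the threshold (adjusted p = 0.0498). That day 14 call was lost without a filter on low counts, without the ribosomal RNA models and without any 1 of the 4 day 14 libraries (range over the alternatives 0.0205 to 0.27). The 3′ end of Itga4 lies under the gene Cerkl on the opposite strand, which held 2686 counts beside the 10336 of Itga4, and whether the counting used strand is not given in the sources used here. Cerkl rose by 0.72 ± 0.13 at day 5 (adjusted p = 0.000402) and had 0.28 ± 0.17 at day 14 (adjusted p = 0.222).

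The other α-chains that pair with β1 did not follow it. Itga6, a laminin receptor chain found on hematopoietic stem cells and megakaryocytes, had 32.6, 25.4 and 30.7 CPM in AG120 day 5 libraries, against 82.6, 78.6 and 72.7 CPM in vehicle day 5 libraries. By day 14 Itga6 was at 17.9 and 13.2 CPM under AG120, against 78.2 and 72.1 CPM under vehicle. It was low in every AG120 library, and lowest at day 14. Itga6 fell at day 5 (-1.40 ± 0.17, adjusted p = 6.51e-06) and at day 14 (-2.29 ± 0.22, adjusted p = 8.26e-07), and the difference between the days of -0.89 ± 0.28 did not pass (adjusted p = 0.172). It passed without a filter on low counts (adjusted p = 0.0161) and with only the AG120 and vehicle libraries in the fit (0.0032). Itga5, the α-chain of the classical fibronectin receptor, had 2 to 12 counts per library and overlapped between the groups at both days (-0.33 ± 0.57 and 0.35 ± 0.81, adjusted p = 0.676 and 0.772). Its intervals, -1.54 to 0.87 at day 5 and -1.37 to 2.06 at day 14 (95%), leave changes of over 2-fold unresolved.

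Itgb7, which pairs with the Itga4 product into the gut-homing receptor, had 21.9, 15.5 and 18.8 CPM in AG120 day 5 libraries, against 34.2, 31.6 and 31.9 CPM in vehicle day 5 libraries. At day 14 it had 27.5 and 31.8 CPM under AG120, against 29.3 and 34.8 CPM under vehicle. The groups were apart at day 5 and mixed at day 14. Itgb7 fell at day 5 (-0.79 ± 0.21, adjusted p = 0.00737), and its day 14 value was -0.11 ± 0.26 (adjusted p = 0.779). The difference between the days, 0.68 ± 0.34, did not pass (adjusted p = 0.422); with only the AG120 and vehicle libraries in the fit it did (adjusted p = 0.024).

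Pecam1 (CD31), an immunoglobulin-family receptor that binds itself on neighbouring leukocytes, platelets and endothelium, had 26.5, 21.5 and 18.4 CPM in AG120 day 5 libraries, against 108, 97.4 and 106 CPM in vehicle day 5 libraries. By day 14 Pecam1 was at 9.55 and 16.8 CPM under AG120, against 96.1 and 108 CPM under vehicle. The vehicle libraries were uniform, and every AG120 library was far below the lowest of them. Pecam1 fell at day 5 (-2.23 ± 0.24, adjusted p = 5.13e-06) and at day 14 (-2.92 ± 0.32, adjusted p = 6.23e-06), and the days did not differ past the threshold (-0.69 ± 0.39, adjusted p = 0.51). Of 11 endothelial marker genes, Cdh5 and Cldn5 had no count in any AG120 or vehicle library. The summed level of the 11 was 38.0 to 58.5 CPM under AG120 and 44.4 to 53.2 CPM under vehicle at day 5. At day 14 it was 59.0 to 62.1 CPM under AG120 and 45.7 to 48.4 CPM under vehicle. Most of the sum was Egfl7, which averaged 44.0 CPM in AG120 day 5 and 41.0 CPM in vehicle day 5 libraries. The scarcer markers differed in direction at day 5. Tek (0.528 against 2.66 CPM), Tie1 (0.208 against 2.11) and Esam (0.0508 against 1.05) were lower under AG120 than under vehicle. Plvap was higher (4.78 against 0.884). The mean of Vwf was also higher (1.06 against 0.747), but its libraries overlapped (0.840 to 1.22 CPM under AG120 and 0.142 to 1.66 CPM under vehicle). The part of endothelial RNA in the Pecam1 values was not tested.

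**Figure D2:**
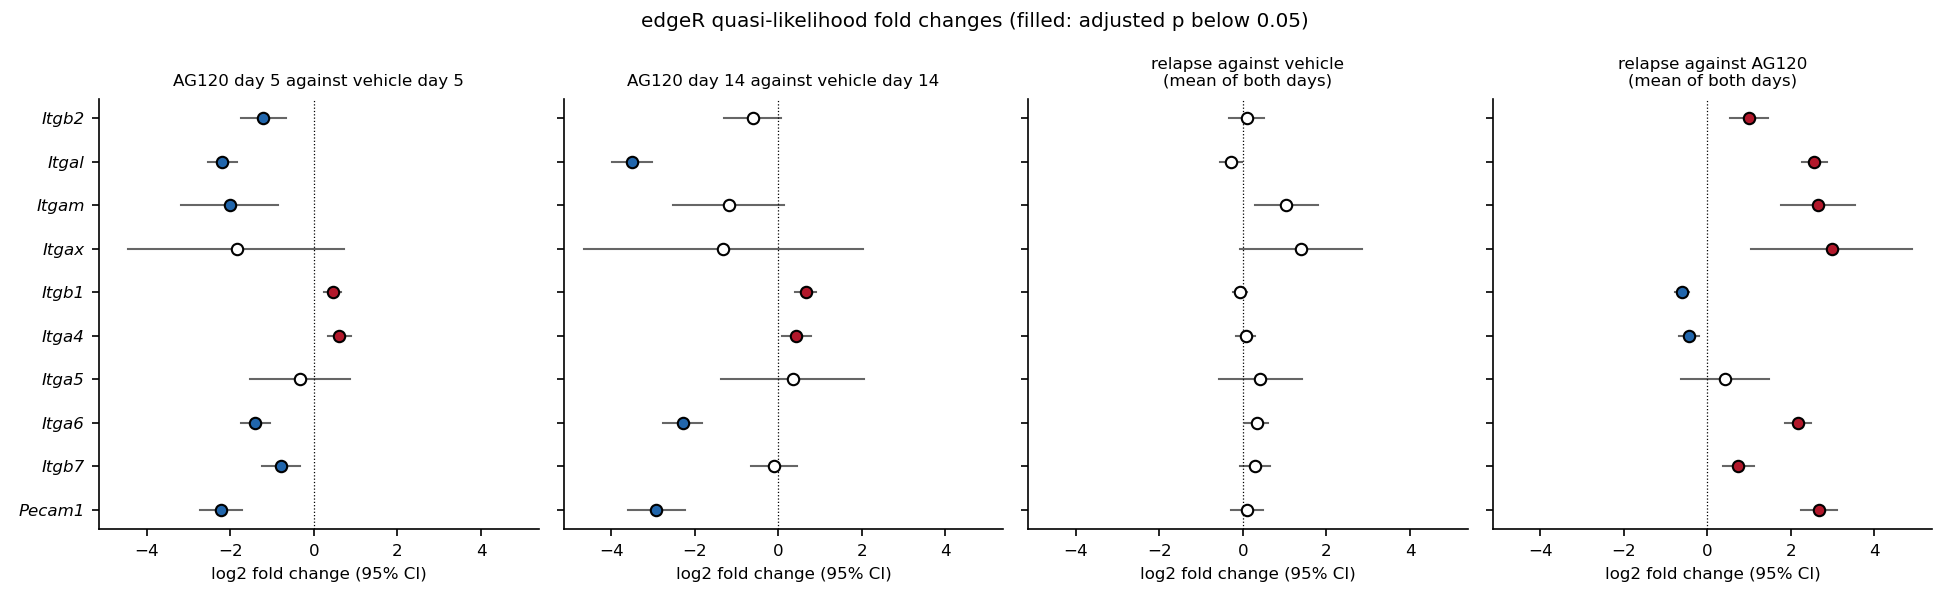
Log2 fold change (x axis) of each of the 10 genes in 4 comparisons, from edgeR's quasi-likelihood fit over all 14 libraries; lines are 95% confidence intervals and filled points have an adjusted p below 0.05. Itgal, Itga6 and Pecam1 lie far left of 0 at both days of AG120 and Itgb1 and Itga4 right of it, whereas no gene is filled in relapse against vehicle.

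The make-up of the α-chain transcripts therefore differed between the groups. Itga4 made up 76.1% ± 0.689 of the summed CPM of the 6 α-chain genes in AG120 day 5 libraries, against 38.8% ± 2.04 in vehicle day 5 libraries (SD, n = 3 each). At day 14 its share was 79.7% ± 0.482 under AG120 and 34.5% ± 0.848 under vehicle (SD, n = 2 each). No AG120 library was under 75.3% and no vehicle library above 40.3%. Itgal held 7.26% ± 0.684 in AG120 day 5 and 25.8% ± 1.78 in vehicle day 5 libraries, and Itga6 held 14.5% ± 1.55 in AG120 day 5 and 29.8% ± 1.46 in vehicle day 5 libraries. The summed α-chain level was 203 ± 6.56 CPM in AG120 day 5 libraries and 262 ± 7.99 CPM in vehicle day 5 libraries.

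Among the 3 β-chain genes Itgb1 held 87.8% ± 1.83 in AG120 day 5 and 74.2% ± 0.564 in vehicle day 5 libraries, and Itgb2 held 2.25% ± 0.148 in AG120 day 5 and 6.002% ± 0.293 in vehicle day 5 libraries. The summed β-chain level was 189 ± 1.22 CPM in AG120 day 5 libraries and 164 ± 8.36 CPM in vehicle day 5 libraries. These shares are of the genes described here and leave out Itga2b, a platelet and progenitor α-chain that had 38.5 ± 10.5 CPM in AG120 day 5 and 231 ± 27.6 CPM in vehicle day 5 libraries.

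**Figure D3:**
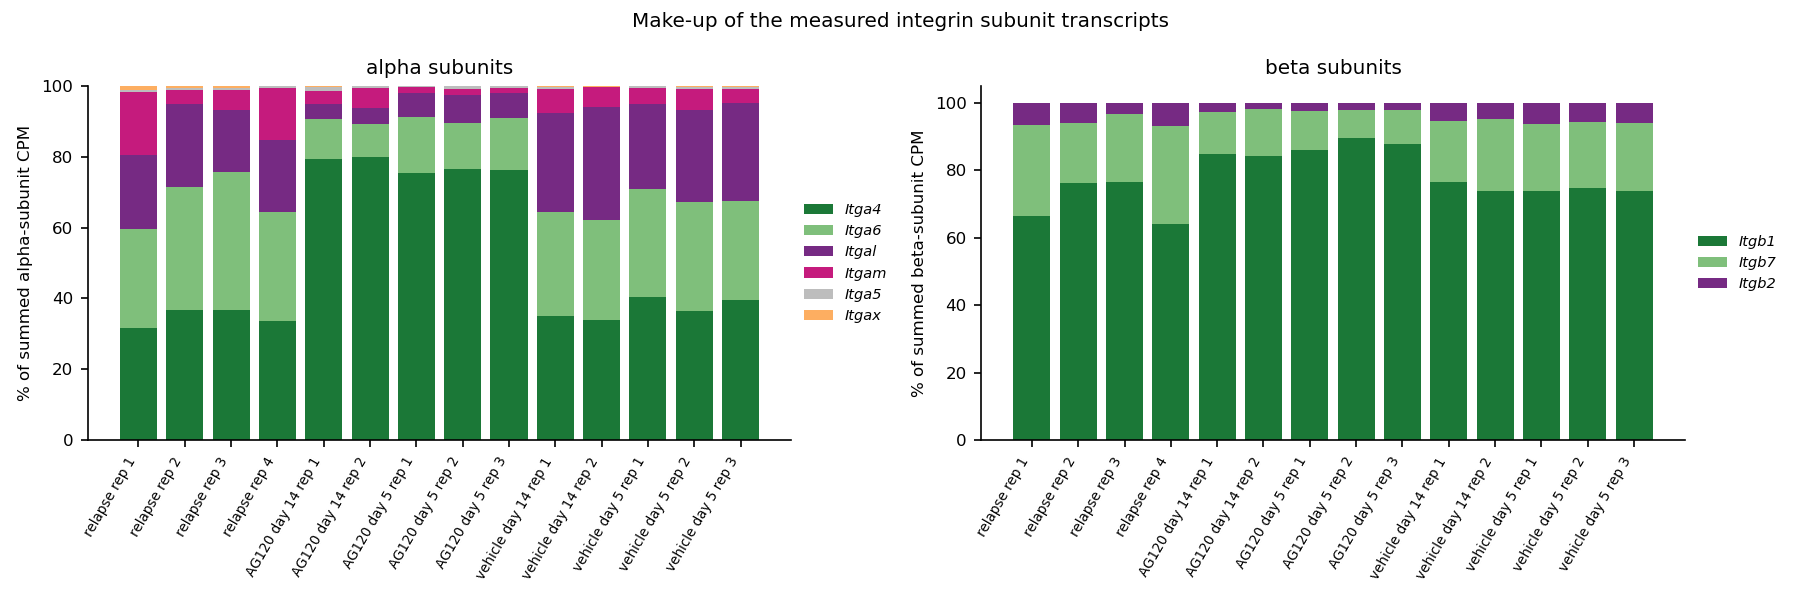
Share of each gene in the summed CPM of the 6 α-chain genes (left) and of the 3 β-chain genes (right), in percent on the y axis, for each library on the x axis. Itga4 takes 75.3% to 80.1% of the α-chain transcripts in AG120 libraries and 31.6% to 40.3% in relapse and vehicle libraries.

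In relapse against the mean of both vehicle groups the 10 genes differed in how closely they were resolved. By edgeR 0 of the 10 passed, where 0.183% of all genes tested passed (0.100% higher and 0.0834% lower), and DESeq2 also called 0 of the 10. At an unadjusted p under 0.05 there were 3 (Itgam, Itga6 and Itgal) of the 10 genes, and 1389 of all genes tested. The libraries of relapse and vehicle overlapped for all 10 genes, and 3.95% of all genes tested did not overlap. The median log2 fold change was 0.20 over the 10 genes and 0.02 over all genes. The narrowest interval was that of Itgb1 (log2 fold change -0.06, 95% interval -0.23 to 0.11), and Pecam1 was resolved to between -0.29 and 0.49. The largest value was that of Itgax, at 1.39 ± 0.69 (95% interval -0.07 to 2.85, adjusted p = 0.454, and 0.88 to 1.86 over the alternatives). Itgax had 3.40, 1.78, 1.93 and 0 CPM in relapse replicates 1 to 4, against 0.285 to 0.884 CPM with a median of 0.660 in the 5 vehicle libraries. Replicates 1 to 3 were thus above every vehicle library, and replicate 4 had no count. Only in relapse did Itgax reach the filter's minimum of 10 counts, so it was tested through this group.

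Against the mean of both AG120 groups, 7 of the 10 genes rose in relapse, 2 fell and 1 (Itga5) did not pass, where 54.0% of all genes tested passed (27.9% higher and 26.1% lower). This comparison uses the same relapse libraries as the one with vehicle and the same AG120 libraries as the day 5 and day 14 comparisons, so its directions are not separate evidence. Itgax, among the 7, was tested through the relapse group, so the filter favoured its rise, and its call is a description only. The ranges did not overlap for 5 of the 10 genes and for 37.2% of all genes. The median log2 fold change was 1.58 over the 10 genes and 0.01 over all genes tested.

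Pecam1 had 75.8, 153, 119 and 93.0 CPM in relapse replicates 1 to 4, against 9.55 to 26.5 CPM with a median of 18.4 in the 5 AG120 libraries. Itgal had 62.7, 77.0, 49.4 and 49.3 CPM in relapse replicates 1 to 4, against 6.81 to 15.6 CPM with a median of 13.4 in the AG120 libraries. Itga6 had 85.01, 116, 109 and 74.2 CPM in relapse replicates 1 to 4, against 13.2 to 32.6 CPM with a median of 25.4 in the AG120 libraries. For these 3 genes every relapse library was well above every AG120 library. The log2 fold changes were 2.67 ± 0.20 for Pecam1 (adjusted p = 5.87e-08), 2.56 ± 0.15 for Itgal (4.15e-10) and 2.17 ± 0.14 for Itga6 (2.71e-09).

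Itgb1 had 113, 113, 125 and 114 CPM in relapse replicates 1 to 4, all below the lowest AG120 library at 163 CPM (log2 fold change -0.61 ± 0.08, adjusted p = 9.61e-06). Itga4 had 95.2, 122, 103 and 81.6 CPM in relapse replicates 1 to 4, and replicate 2 was above the lower AG120 day 14 library (-0.45 ± 0.11, adjusted p = 0.00251). Both members of the VCAM1 and fibronectin receptor were thus lower in relapse than under AG120. Itgb2 had 10.96, 9.09, 5.64 and 12.1 CPM in relapse replicates 1 to 4 and rose by 1.00 ± 0.21 log2 units (adjusted p = 0.000885). Itgb7 rose by 0.74 ± 0.17 (adjusted p = 0.00196), with overlapping libraries. Itgax rose by 2.98 ± 0.91 (adjusted p = 0.0112) on 18, 10, 14 and 0 counts in relapse replicates 1 to 4. The call was lost without AG120 day 14 replicate 2 (log2 fold change 2.37). The filter favoured this rise, as Itgax was tested through relapse.

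Itgam separated the relapse mice from one another. It had 53.5, 13.9, 16.1 and 35.5 CPM in relapse replicates 1 to 4, against 10.6 to 18.02 CPM with a median of 14.5 in the 5 vehicle libraries. Replicates 1 and 4 were above every vehicle library, whereas replicates 2 and 3 lay within the vehicle range. The log2 fold change against vehicle was 1.04 ± 0.35 (adjusted p = 0.275), and 0.62 ± 0.26 without relapse replicate 1 (adjusted p = 0.326). Against AG120 it was 2.64 ± 0.40 (adjusted p = 0.000177), and between 2.22 and 2.90 under every alternative tried. The SD of log2 CPM over the 4 relapse libraries was 0.92 for Itgam, against 0.25 within the days of the vehicle libraries. Of all genes tested, 92.8% had a smaller SD in relapse than Itgam, and the median gene had 0.32 in relapse and 0.18 in vehicle libraries.

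Itgb7 followed the same split, with 46.5, 26.2, 32.7 and 52.0 CPM in relapse replicates 1 to 4, the highest again in replicates 1 and 4. Pecam1 and Itga6 went the other way, and were higher in replicates 2 and 3 (153 and 119 CPM for Pecam1) than in replicates 1 and 4 (75.8 and 93.0 CPM). Itgb1 hardly varied, with an SD of 0.07, and 2.12% of all genes tested had a smaller one. The Kit levels given above were low in replicates 1 and 4, where Itgam was high. Summed over 14 marker genes each, neutrophil transcripts were at 2546, 1749, 687 and 1771 CPM and monocyte and macrophage transcripts at 54.6, 32.1, 29.0 and 41.2 CPM in relapse replicates 1 to 4. Summed megakaryocyte and platelet transcripts (11 genes, with Itga2b and Itgb3 among them) were at 94.1, 295.6, 288 and 114 CPM. This sum was mostly Itga2b, which averaged 162 CPM in the relapse libraries (75.4 to 247 CPM). The monocyte sum was highest in replicates 1 and 4 and the megakaryocyte sum lowest, as Itgam and Pecam1 were. The part of such cells in the split was not tested.

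**Figure D4:**
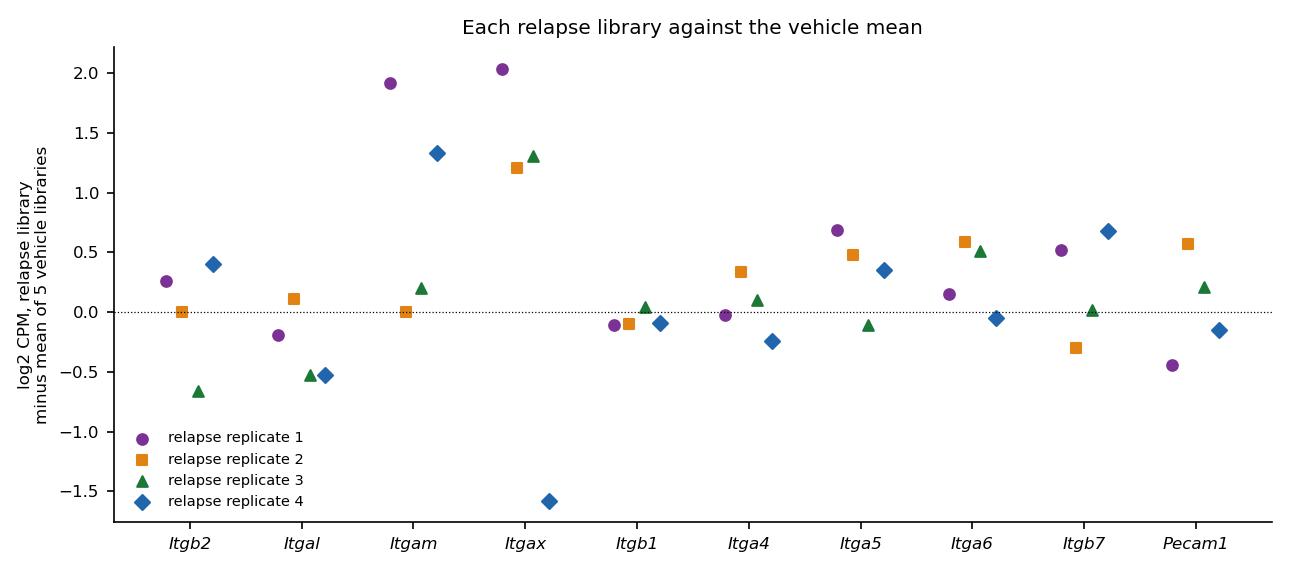
Log2 CPM of each relapse library minus the mean of the 5 vehicle libraries (y axis) for the 10 genes (x axis); each symbol is 1 mouse. For Itgam the symbols of replicates 1 and 4 stand at 1.92 and 1.33 and those of replicates 2 and 3 at 0.00 and 0.20, and for Itgb1 all 4 sit near 0; for Itgax replicates 1 to 3 stand above every vehicle library, at 2.04, 1.21 and 1.31, and the low point is replicate 4, which had no count.

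In vehicle day 14 libraries against vehicle day 5 libraries, 0 of the 10 genes passed by edgeR or DESeq2, and 0 of the 10 had an unadjusted p under 0.05. Of all genes tested 0% passed by edgeR and 0 genes by DESeq2, and 574 had an unadjusted p under 0.05. The ranges did not overlap for Itgal and Itgb2, which held for 31.3% of all genes tested.

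Among the other 18 integrin subunit genes, 6 were measured well enough to test (Itga1, Itga2, Itga2b, Itgav, Itgb3 and Itgb6), and 0 rose and 5 fell at day 5 of AG120 (median log2 fold change -2.67), where 19.3% of all genes tested were lower. At day 14, 3 of the 6 fell, where 17.9% of all genes were lower, and in relapse against AG120 all 6 rose, where 27.9% of all genes were higher. Itga1, Itga2 and Itgb6 averaged 0.165, 0.429 and 0.211 CPM in AG120 day 5 libraries and 2.26, 3.035 and 2.91 CPM in vehicle day 5 libraries. They passed the filter on low counts through groups other than AG120. The filter thus favoured falls under AG120 and rises in relapse among the 6, and these counts are a description only. Itga2b, the α-chain of the platelet fibrinogen receptor, fell at both days (-2.58 ± 0.44 and -2.40 ± 0.55, adjusted p = 0.00101 and 0.00662). Its partner Itgb3 had 4.10 ± 1.34 CPM in AG120 day 5 and 21.7 ± 3.90 CPM in vehicle day 5 libraries (SD, n = 3 each). At day 14 it had 20.9 ± 4.99 CPM under AG120 and 21.8 ± 4.62 CPM under vehicle (SD, n = 2 each). Itgb3 thus fell at day 5 (-2.39 ± 0.27, adjusted p = 3.57e-06) and not at day 14 (-0.07 ± 0.29), and the days differed by 2.32 ± 0.39 (adjusted p = 0.0111). In that difference 0.208% of all genes tested were higher, and the Itgb3 call was not examined with a library left out.

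Of 41 genes for integrin activation and adaptors, 34 were tested, and 2 rose and 20 fell at day 5 (median log2 fold change -0.69), against 20.1% higher and 19.3% lower over all genes. At day 14, 4 rose and 17 fell (median -0.81), against 16.8% higher and 17.9% lower over all genes. In relapse against AG120, 23 rose and 5 fell, against 27.9% higher and 26.1% lower over all genes. Talin (Tln1), which binds β-chain tails to switch integrins on, fell by 1.25 ± 0.14 log2 units at day 5 (adjusted p = 3.94e-06), and Rasgrp2, the exchange factor for the small GTPase RAP1, fell by 1.86 ± 0.14 (adjusted p = 3.89e-08). Kindlin-3 (Fermt3), the other β-tail activator of blood cells, had -0.23 ± 0.16 at day 5 (adjusted p = 0.266). The focal-adhesion protein zyxin (Zyx) fell at both days (-2.23 ± 0.34 and -3.11 ± 0.50), and so did the tetraspanin Cd9 (-2.18 ± 0.31 and -2.59 ± 0.43). Vinculin (Vcl) rose at day 5 (0.73 ± 0.18) and at day 14 (1.26 ± 0.22), as did the tetraspanin Cd81 (0.96 ± 0.16 and 0.86 ± 0.21). Syk, a kinase downstream of integrins, and Rassf5, a RAP1 effector that activates LFA-1, fell further at day 14 than at day 5, by 1.19 ± 0.26 and 1.18 ± 0.26 log2 units (adjusted p = 0.0343 and 0.0364). Of all genes tested, 0.725% were lower in this difference between the days. Its 112 calls became 13 to 61 with a library left out, and whether Syk and Rassf5 stayed among them was not examined.

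Of 20 genes for ligands and counter-receptors 10 were tested. At day 5, 2 rose and 3 fell (median log2 fold change -1.02), and at day 14, 2 rose and 2 fell (median -0.76), counts near the 39.4% and 34.7% of all genes that passed. Icam1, a ligand of LFA-1 and of the CD11b receptor, had 0.683 ± 0.332 CPM in AG120 day 5 and 5.12 ± 0.747 CPM in vehicle day 5 libraries and fell at both days (-2.86 ± 0.39 and -5.16 ± 0.75). Icam4, the red-cell ligand of leukocyte integrins, had 29.0 ± 1.96 CPM in AG120 day 5 and 5.64 ± 1.37 CPM in vehicle day 5 libraries and rose at both days (2.37 ± 0.32 and 2.44 ± 0.40). In relapse against AG120, 6 of the 10 rose and 2 fell, where 54.0% of all genes passed. For genes near 0 under AG120, such as Icam1, the filter favoured falls under AG120 and rises in relapse, so these counts are a description only.

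Of 17 genes for other leukocyte adhesion receptors 14 were tested, and 2 rose and 9 fell at day 5 (median log2 fold change -2.38), 1 rose and 6 fell at day 14 (median -2.02), and 10 rose and 1 fell in relapse against AG120. Of all genes, 19.3% were lower at day 5, 17.9% lower at day 14 and 27.9% higher in relapse against AG120. Cd34, given above, was among the 9 that fell at day 5, and Cd93 was among those that fell at day 14 (-4.11 ± 0.29). Cd44, a hyaluronan receptor, did not pass at day 5 (0.35 ± 0.25, adjusted p = 0.297). In relapse against vehicle the median log2 fold change was -0.30 over the other integrin subunits, 0.09 over the activation and adaptor genes, 0.38 over the ligands and 0.32 over the other adhesion receptors, against 0.02 over all genes tested. In each of these lists 0 genes passed in that comparison, where 0.183% of all genes tested passed.

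Markers of other blood cells were counted in the same fit, in which 39.4% of all genes tested passed at day 5 (20.1% higher and 19.3% lower) and 34.7% at day 14 (16.8% higher and 17.9% lower). Of 15 erythroid markers, 9 rose and 0 fell at day 5 and 12 rose and 0 fell at day 14, and their summed level under AG120 was 634 to 773 CPM at day 5 and 1851 to 2100.4 CPM at day 14. It was 82.1 to 491 CPM in relapse, 110 to 181 CPM in vehicle day 5 and 152 to 194 CPM in vehicle day 14 libraries, with no erythroid marker at 0 in any group. Of 14 neutrophil markers 0 rose and 4 fell at day 5 (median log2 fold change -2.02) and 0 rose and 2 fell at day 14 (median 0.64). Counted in either direction, these are smaller shares than over all genes. The share that fell at day 5 was larger than the 19.3% lower over all genes. Their sum was 452 to 483 CPM under AG120 and 1193 to 1925 CPM under vehicle at day 5, and 1461 to 1861 CPM under AG120 and 1901 to 2021 CPM under vehicle at day 14. The neutrophil sum was thus low at day 5 of AG120, where Itgam and Itgb7 were also lowest, and no marker was at 0. Within the day 14 sum the markers differed in direction. S100a8 averaged 737 CPM under AG120 and 572 CPM under vehicle, whereas Mpo, which fell, averaged 130 and 757 CPM.

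Of 9 megakaryocyte and platelet markers tested, 0 rose and 5 fell at day 5 and 1 rose and 1 fell at day 14, with sums of 39.3 to 62.3 CPM in AG120 day 5 and 275 to 343 CPM in vehicle day 5 libraries. At day 14 the sums were 105 to 106 CPM under AG120 and 253 to 275 CPM under vehicle. Most of the difference between these sums was that of Itga2b. It averaged 38.5 CPM in AG120 day 5 and 231 CPM in vehicle day 5 libraries, and 37.1 and 197 CPM at day 14. Of 7 monocyte and macrophage markers tested, 1 rose and 2 fell at day 5 and 2 rose and 2 fell at day 14, and of 6 dendritic cell markers 1 rose and 1 fell at day 5 and 1 rose and 0 fell at day 14. Of 6 endothelial markers tested 1 rose and 3 fell at day 5 and 2 rose and 0 fell at day 14. Of 5 mast cell and basophil markers 0 rose and 3 fell at day 5 and 0 rose and 4 fell at day 14, of 4 T and NK cell markers 0 rose and 2 fell at day 5 and 0 rose and 1 fell at day 14, and of 2 B and plasma cell markers 0 rose and 1 fell at each day. The part of these cell types in the values of the 10 genes was not tested.

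Over the 14 libraries the patterns of Itgal, Itga6 and Pecam1 were alike (r = 0.95 to 0.97 between pairs of log2 CPM), as a description of points that share their groups. Without the 5 AG120 libraries the same pairs had r = -0.17 for Itgal and Itga6, 0.25 for Itgal and Pecam1 and 0.64 for Itga6 and Pecam1. Itgam was most like Itgb7 among the 10 genes, with r = 0.91 over the 14 libraries and 0.80 over the 9 without AG120. Of all named genes tested, Pecam1 was closest to Stat3 (r = 0.994), Cd93 (0.992) and Phf21a (0.989), and Itgal to Lasp1 (0.994), Cers5 (0.988) and Tes (0.987). Itga6 was closest to Ripor2 (0.989), Itgb1 to Abcg4 (0.996), Itga4 to Hdac7 (0.962), Itgb2 to Tram1 (0.967), Itgb7 to Cfp (0.934) and Itgam to Kcnk12 (0.960). Over the 9 libraries without AG120 these values ranged widely: r was 0.191 for Itgal and Tes, 0.271 for Itgal and Cers5, 0.805 for Itgal and Lasp1, 0.924 for Pecam1 and Stat3, and 0.953 for Itgb1 and Abcg4.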

How the data were processed

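RNA of sorted leukemic progenitors from 14 mice, 1 library per mouse, was sequenced with a QuantSeq 3′ kit, per the labels. The authors deposited raw counts per Ensembl gene in 1 table. The submitters' processing notes name HISAT2 2.1.0, featureCounts (Subread 1.6.3), cutadapt 1.14 and edgeR 3.28.1, and the build mm10. Strand setting: not given in the sources used here. A gene annotation supplied symbols for 52489 identifiers, and 22670 had no count in any library.

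Genes were filtered with filterByExpr (minimum count 10), scaled by TMM and fitted with edgeR 4.0.16 (quasi-likelihood, robust, 1 coefficient per group, R 4.3.3) to the 14 libraries together (common dispersion 0.0291, residual degrees of freedom 9). Genes scarce in some groups could pass the filter through their level in others, so list counts of such genes lean that way. Effects at the 2 days share no library. Adjusted p values use Benjamini-Hochberg over all 11994 genes tested, with 0.05 as the threshold for "passed", "rose" and "fell". CPM was computed with TMM-scaled library sizes; for log2 CPM the prior count was 2. The script was tested on simulated data. Alternatives were DESeq2 1.42.0, its size factors, no filter, the ribosomal RNA models left out, a replicate block, only the groups compared in the fit, and each library left out in turn.

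The 10 genes, the 13 gene lists (4 of adhesion genes, 9 of cell type markers) and the tests were chosen with earlier results of these data known. Named genes were the 10 in every comparison, up to 3 per list and direction of largest change among those that passed (2 of highest expression where none did), Kit and Cd34 for the gate, and the 3 genes most alike, except 1 gene that is not reported here; the adhesion genes Tln1, Rasgrp2, Fermt3, Cd44, and Itga2b and Itgb3 beyond that rule, were chosen after their values were seen. Not every list gene that the naming rule selects appears in the text. Replicates of a group differed beyond counting noise (chi-square per degree of freedom 1.88 to 21.5). Counting intervals cover counting error only, and a count of 0 allows up to 3 counts.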

Additional observations from a re-analysis of the deposited data

Results flagged for a closer look

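Among the 4 relapse libraries, Itgb1 in replicate 3 stood apart at 125 CPM, against 113 to 114 CPM in the other 3. The gap was 0.918 of the whole range, above the 95% critical value of Dixon's test for 4 samples. The SD of log2 CPM over the 4 was 0.07, and chance flags about 1 in 20 groups.

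The effect of AG120 on Itgal differed between the days, with a log2 difference of -1.31 ± 0.28 (day 14 minus day 5, adjusted p = 0.0343, edgeR). Its level was 6.81 to 6.87 CPM in AG120 day 14 and 13.4 to 15.6 CPM in AG120 day 5 libraries.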

How the results depend on the processing

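Of 791 values of single genes under alternatives, 770 kept their direction and side of the threshold, 17 lost the call, 4 gained it and 0 reversed. The lost calls were those of Itga4 at day 14, of the difference between the days for Itgal, and of Itgax in relapse against AG120; the cause was not tested. The number of the 10 genes called was 8 at day 5 in every fit, 4 to 6 at day 14, and 8 or 9 in relapse against AG120. For the difference between the days it was 1, but 2 with no filter on low counts, 3 when the other groups stayed out of the fit, and 0 with any 1 of the 10 AG120 and vehicle libraries left out.

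Over all genes, the difference between the days gave 112 calls, but 174 by DESeq2, 374 with no filter, 869 when the other groups stayed out of the fit and 13 to 61 with a library left out. Relapse against vehicle gave 22 calls, but 101 by DESeq2, 267 with no filter, 7 when the other groups stayed out of the fit and 8 to 117 with a library left out (48 without relapse replicate 1, 117 without replicate 2 and 106 without replicate 3, and 8 to 14 without any 1 vehicle library). Vehicle day 14 against vehicle day 5 gave 0 calls by edgeR and DESeq2, but 33 with no filter and 236 when the other groups stayed out of the fit. The day 14 count of 4159 was 2752 to 3003 with a library left out, lowest without vehicle day 14 replicate 2.

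Same-numbered samples did not deviate together (23 pairs, r from -0.207 to 0.109). The deviations are from group means, so in such small groups they are tied to one another. A pairing of the mice by number was thus not seen, but this check cannot exclude it. With a replicate block the calls were 4677 at day 5, 4129 at day 14, 108 for the difference between the days, 16 for relapse against vehicle, 6167 for relapse against AG120 and 0 between the vehicle days, and every count of the 10 genes was unchanged. Relapse replicate 4 alone carries its number. With groups of 2 to 4 mice and few counts, Itga5 and Itgax are limited by depth.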

Other observations

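A second gene model, Gm49368 (chr7:128062683-128128160, plus strand), lies over Itgam. It shares 30 of its 32 exons with Itgam and ends 9669 bases past it, in a last exon at chr7:128126808-128128160 between Itgam and Itgax. It held 570 counts, against 1443 for Itgam. Its share of the sum of both was 30.6% in AG120 day 5, 31.0% in AG120 day 14, 27.2% in relapse, 30.8% in vehicle day 5 and 27.2% in vehicle day 14 libraries. Gm49368 fell at day 5 of AG120 (log2 fold change -2.02 ± 0.59, adjusted p = 0.0149, edgeR) and rose in relapse against AG120 (2.39 ± 0.45, adjusted p = 0.000504). In an alternative chosen after seeing the data, its counts were added to those of Itgam, and all 6 comparisons of Itgam stayed on their side of the threshold (log2 fold change -2.02 at day 5, -1.12 at day 14, 1.01 in relapse against vehicle and 2.58 in relapse against AG120). Whether reads that fall in both models were left out of both counts is not given in the sources used here.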
